A study of Glycyrrhiza uralensis with 48 samples.

Results

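Salt-stressed licorice seedlings that were also kept dry (salt-drought, SD) were compared with salt-stressed seedlings that were not (S), in the aerial parts and without silicate. The comparison used 3 SD and 3 S libraries, which are 6 of the 48 libraries of the series, and it took in all genes. Of the 38463 gene rows in the deposited table, 23389 reached 1 FPKM in at least 3 of the 24 aerial libraries and were tested. FPKM are sequenced fragments per kilobase of transcript and per unit of library depth.

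The species was Glycyrrhiza uralensis, a legume of dry lands whose roots are used as licorice. RNA of seedlings aged 45 days was measured in aerial and underground parts, collected separately, in 16 groups of 3 libraries. Per the labels' protocols, each pot held 1900 g of sterilised, nutrient-free desert sand sown with 75 seeds. SD seedlings received 75 mM NaCl at 35 to 45% of the sand's saturation moisture, and S seedlings received 75 mM NaCl. Drought-only seedlings (D) were kept at 35 to 45% of saturation moisture without salt, and control seedlings (CK) were given distilled water. The groups SD+Si, S+Si, D+Si and CK+Si had the same treatments with 2 mM silicon added as potassium silicate. No moisture level was given for S or CK, and the number of seedlings in a library is not given in the sources used here. Nothing in the labels says that replicate libraries came from separate pots or plants, so p-values measure only the spread between these libraries, which may be technical.

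Drought lowers the water a plant can draw from the soil. Salt does so too, and it also loads the shoot with sodium and chloride ions. Plants meet both with the hormone abscisic acid, which closes the stomata and turns on genes for protective proteins and compatible solutes, while growth and photosynthesis are held back. The deposited files pair no identifier with a gene name, so neither these pathways nor any other gene list could be followed by name, and genes are given by identifier.

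Adding drought to salt raised 388 genes and lowered 467 in the aerial parts, 855 of 23389 tested genes or 3.66% (limma, Benjamini-Hochberg adjusted p under 0.05). The genes that rose were 1.66% of those tested and the genes that fell were 2%. Larger changes were mostly falls: 137 of the genes that fell changed by at least 1 log2 unit, against 32 of the genes that rose. Most changes were small. The median change was 0.57 among the genes that rose and -0.71 among those that fell, beside -0.04 over all tested genes. All changes are differences in log2(FPKM + 1), a scale that understates the change of genes at low levels.

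Of the genes that rose, 126 changed by less than 0.5 log2 units, 230 by 0.5 to 1, 30 by 1 to 2 and 2 by more than 2. Of the genes that fell, 121 changed by less than 0.5, 209 by 0.5 to 1, 116 by 1 to 2 and 21 by more than 2. The 3 SD values lay above the 3 S values for 386 of the 388 genes that rose, and below them for 446 of the 467 that fell. Over all tested genes the 3 SD values lay above all S values for 2397 genes and below them for 2536, so most genes with separated groups did not pass the test. Before adjustment 4845 genes, 20.7%, had a p under 0.05. A single gene was listed at 0 in every SD library and at 1 FPKM or more in every S library, and 0 genes showed the opposite.

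How many genes were called depended on single libraries. Without SD library 1 there were 755 called genes, without SD library 2 there were 425, and without SD library 3 there were 31. Without S library 1 there were 2005, without S library 2 there were 330, and without S library 3 there were 237. The balance of directions turned as well. Falls outnumbered rises most without S library 1, with 644 rises and 1361 falls, whereas rises were the more numerous without S library 2, with 201 rises and 129 falls, and without SD library 1, with 409 rises and 346 falls. All 855 genes kept their direction in each of these fits. For nearly all of them the SD and S values did not overlap, so leaving out a library could not turn the direction. Only 30 genes, 10 that rose and 20 that fell, were called in every one of them, and 124 genes were called in all the fits that kept SD library 3. When SD and S were fitted without the other aerial groups, limma called 0 genes, with 3336 at an unadjusted p under 0.05.

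**Figure D1:**
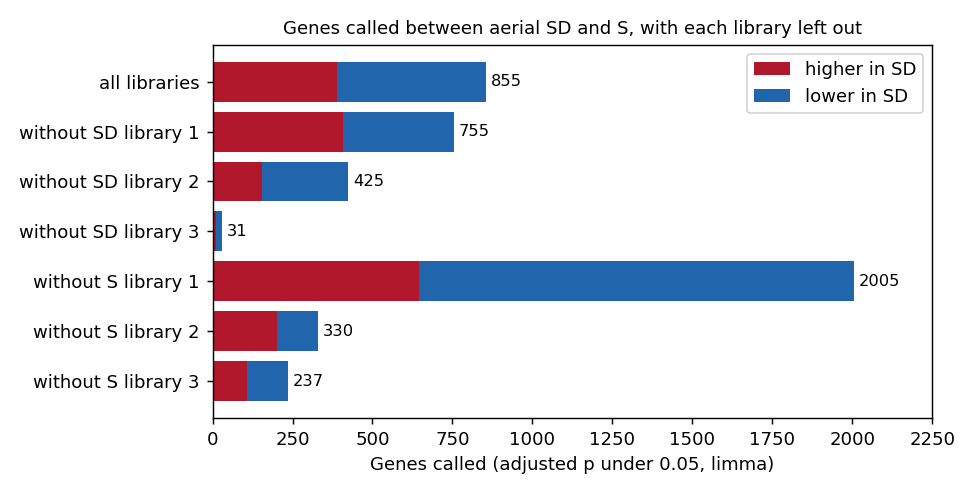
Number of genes called between aerial SD and S (horizontal axis; adjusted p under 0.05, limma) with all libraries and with each of the 6 libraries left out; red is the part of each bar higher in SD and blue the part lower in SD. The count runs from 31 without SD library 3 to 2005 without S library 1.

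The libraries themselves differed in ways that touch these counts. S library 1 had a mean correlation of 0.950 with the SD libraries and of 0.943 with the other S libraries, over tested genes on the log2(FPKM + 1) scale, so it lay closer to SD than to its own group. The SD libraries had mean correlations of 0.970 to 0.973 with each other, and the highest of any aerial pair was 0.973. Between 19747 and 20022 genes reached 1 FPKM in the SD libraries, against 19600 to 20837 in the S libraries (exact permutation test, two-sided, p = 0.4). The 100 highest genes held 22.8 to 25.2% of the summed FPKM in SD libraries, against 19.4 to 24.1% in S libraries (exact permutation test, two-sided, p = 0.2). With 3 against 3 libraries such a test cannot go below 0.1. The part each of these plays in the gene counts was not tested.

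The labelled plant part was checked with genes that mark each part in the unstressed CK+Si libraries. The 59 aerial markers stood at a median of 104 to 119% of their mean aerial level in the SD libraries, against 93.5 to 117% in the S libraries. The 47 underground markers stood at 0.0698, 0.144 and 0.0794% of their mean underground level in SD libraries 1 to 3, against 0.209, 0.893 and 0.455% in S libraries 1 to 3. The underground markers were thus near 0 in all 6 libraries, and lower in each SD library than in each S library (exact permutation test, two-sided, p = 0.1, the smallest it can give). Summed over the 47 markers, the level was 56.7 to 87.9 FPKM in SD and 135 to 508.6 FPKM in S libraries. Of the 47, 14, 5 and 12 were listed at 0 in the SD libraries, against 4, 1 and 2 in the S libraries. Limma called 0 of the 47 between SD and S, with 6 lower and 0 higher at an unadjusted p under 0.05 and a median change of -0.78.

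The gene with the smallest adjusted p fell. Glyur005689s00046703, a gene with 2 exons on the minus strand at Scaffold05689:6351-8049 of the deposited annotation, had 16.9, 10.7 and 8.85 FPKM in SD libraries, against 95.6, 93.3 and 133.7 FPKM in S libraries. All SD values lay far below all S values. Genes named for a pair of groups were picked among those whose groups did not overlap. The change was -3.07 (SE 0.35, limma adjusted p = 0.00116, the smallest of the comparison), and the call held with each library left out and was lost only when SD and S were fitted alone (adjusted p = 0.118). The gene belongs to the aerial parts, with a mean of 185 FPKM in aerial CK+Si libraries and 2.24 FPKM in underground ones.

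The gene's low level was found wherever salt and drought came together, and in no other aerial group. It had 18.0, 11.8 and 11.9 FPKM in SD+Si libraries, against 233, 90.0 and 109 FPKM in S+Si libraries, a change of -3.18 (SE 0.35, adjusted p = 0.000279). In D libraries it had 158, 160 and 153 FPKM, against 154, 56.8 and 93.4 FPKM in CK libraries, a change of 0.74 that was not called. The difference between the effect of drought with salt and its effect without salt was itself called, at -3.81 (SE 0.50, adjusted p = 0.00114), though it contains the SD and S libraries for which the gene was chosen.

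The largest fall was less secure. Glyur000209s00013480, a gene with a single exon on the plus strand at Scaffold00209:203836-204507, had 0.0947, 0.0882 and 4.32 FPKM in SD libraries, against 24.8, 68.2 and 6.22 FPKM in S libraries. The groups did not overlap, but SD library 3 came close to S library 3. The change was -3.66 (SE 0.94, adjusted p = 0.0384), and the call was lost in 6 of 14 alternative analyses. Underground this gene was far more abundant, with a mean of 304 FPKM in CK+Si libraries against 14.9 FPKM in aerial CK+Si libraries. The underground markers were also lower in each aerial SD library than in each aerial S library. In SD+Si libraries the gene had 6.39, 20.8 and 4.50 FPKM, against 2.76, 22.0 and 0.804 FPKM in S+Si libraries, and these groups overlapped.

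Among rises, Glyur000141s00009812 had the steadier level. It has 2 exons on the minus strand at Scaffold00141:79764-80917, and it had 55.1, 160.8 and 156.6 FPKM in SD libraries, against 24.5, 18.5 and 25.3 FPKM in S libraries. The SD values all lay above the S values, with SD library 1 the lowest of them. The change was 2.26 (SE 0.47, adjusted p = 0.0166). In SD+Si libraries it had 178, 50.8 and 137 FPKM, against 19.6, 22.6 and 26.4 FPKM in S+Si libraries, a change of 2.20 (SE 0.47, adjusted p = 0.0221). In D libraries it had 2.58, 8.65 and 14.5 FPKM, against 8.67, 12.7 and 13.8 FPKM in CK libraries, and that change of -0.62 was not called.

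The largest rise was that of Glyur000013s00003180, with 4 exons on the minus strand at Scaffold00013:16044-17524. It had 9.08, 50.5 and 46.4 FPKM in SD libraries, against 2.85, 7.95 and 4.04 FPKM in S libraries. SD library 1 lay just above S library 2, and the other SD libraries lay several-fold higher. The change was 2.38 (SE 0.52, adjusted p = 0.0194). In SD+Si libraries it had 54.9, 24.7 and 40.4 FPKM, against 7.28, 11.3 and 11.4 FPKM in S+Si libraries, which did not overlap but gave an adjusted p of 0.0561. Both of these rises lost their call in 4 of 14 alternatives, among them the fits without SD library 2 and without SD library 3.

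**Figure D2:**
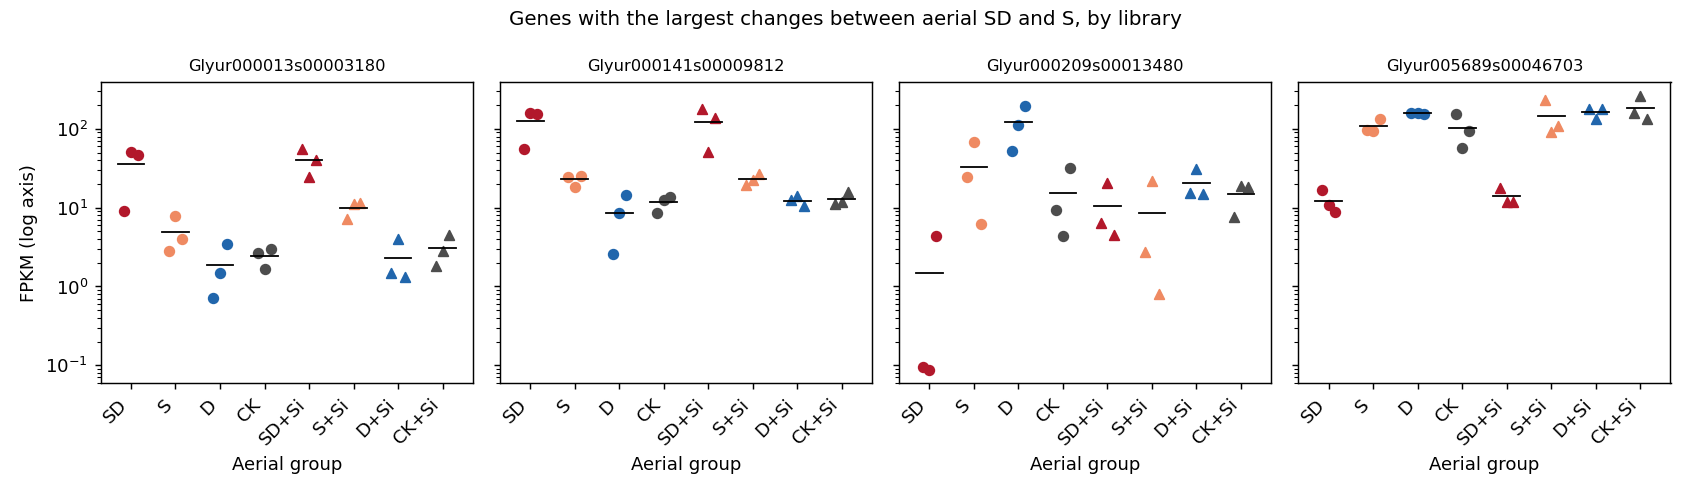
FPKM (log axis) of the genes with the largest rises (left pair) and falls (right pair) between aerial SD and S, in each of the 8 aerial groups; points are libraries, triangles silicate-fed ones, and bars group means. Glyur005689s00046703 lies at 8.85 to 18.0 FPKM in the SD and SD+Si libraries and at 56.8 FPKM or more in every other aerial library.

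The question whether salt changed the response to drought was addressed by setting SD against S beside D against CK, which shares no library with it. Drought without salt raised 389 genes and lowered 389, 778 of 23389 or 3.33% (limma). Of the 388 genes that rose when drought was added to salt, 19 (4.90%) also rose with drought alone and 12 (3.09%) fell. Of the 467 that fell, 49 (10.5%) also fell with drought alone and 18 (3.85%) rose. These stand beside 1.66% of all tested genes in each direction, a share that does not allow for the common spread. Seen from the drought-alone lists, the shared rises were 4.88% of its rises and the shared falls 12.6% of its falls. The median change with drought alone was -0.01 for the genes that rose and 0.01 for those that fell, beside 0.04 over all tested genes.

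D library 3 had higher levels of the underground markers than the other D libraries, at 14.2% of their underground level. Where this RNA came from was not tested. Without D library 3 and SD+Si library 2, the aerial libraries with the highest marker levels, drought alone raised 10 (2.58%) and lowered 7 (1.80%) of the 388 genes. It raised 13 (2.78%) and lowered 48 (10.3%) of the 467. Over all tested genes it then raised 301 (1.29%) and lowered 333 (1.42%).

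The difference between both drought effects was tested directly. It was called for 1021 genes, 4.37% of those tested, with 420 (1.8%) more positive and 601 (2.57%) more negative with salt than without (limma). Across the genes that rose in SD its median was 0.58, and across the genes that fell it was -0.62, beside -0.07 over all tested genes. This difference contains the SD and S libraries that chose the gene sets, so its sign in them is not independent of the choice.

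Some genes fell both with and without salt. Glyur000529s00019343, a gene with a single exon on the plus strand at Scaffold00529:58811-59434, had 0.446, 5.24 and 1.48 FPKM in SD libraries, against 33.6, 22.8 and 10.7 FPKM in S libraries. In D libraries it had 24.01, 20.77 and 31.77 FPKM, against 191, 298 and 319 FPKM in CK libraries. Neither pair of groups overlapped, and the changes were -2.92 with salt (SE 0.42, adjusted p = 0.00382) and -3.34 without salt (SE 0.42, adjusted p = 0.000234). Their difference was 0.42 (SE 0.60, adjusted p = 0.732), which does not show that they are equal. The lowest level was reached where salt and drought were combined: the mean was 2.39 FPKM in SD, 22.4 FPKM in S, 25.5 FPKM in D and 270 FPKM in CK libraries.

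Glyur000080s00008691, a gene with a single exon on the minus strand at Scaffold00080:224929-226329, was likewise lowest in SD and highest in CK among these 4 groups. It had 3.54, 15.6 and 11.7 FPKM in SD libraries, against 98.4, 146 and 37.1 FPKM in S libraries, and 49.3, 29.2 and 53.4 FPKM in D libraries, against 198, 467 and 474 FPKM in CK libraries. Again no pair overlapped. The changes were -3.06 with salt (SE 0.56, adjusted p = 0.0109) and -3.02 without salt (SE 0.56, adjusted p = 0.00555), and their difference was -0.04 (SE 0.80).

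Other genes went apart. Glyur000078s00005378, with 3 exons on the plus strand at Scaffold00078:88881-90386, had 0.671, 6.09 and 7.13 FPKM in SD libraries, against 12.98, 46.99 and 15.34 FPKM in S libraries, a change of -2.28 that was not called (adjusted p = 0.0956). In D libraries it had 34.4, 55.3 and 156 FPKM, against 2.13, 1.62 and 6.62 FPKM in CK libraries, a rise of 4.10 (SE 0.77, adjusted p = 0.00573). The difference was -6.37 (SE 1.08, adjusted p = 0.00609). This gene too was an underground one, at a mean of 450 FPKM in underground CK+Si libraries against 11.1 FPKM in aerial ones. With silicate it had 9.59, 87.1 and 14.4 FPKM in SD+Si libraries, against 2.57, 3.51 and 1.17 FPKM in S+Si libraries. That change was 2.89 (SE 0.77, limma adjusted p = 0.0468), opposite in sign to the change without silicate. The underground markers had a median change of 2.57 in that step. In each of these comparisons the gene's direction was that of the markers, and how much of its change came with them was not tested.

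Silicate-fed seedlings gave a second set of libraries for the same step. With silicate, adding drought to salt raised 351 genes and lowered 359, 710 of 23389 or 3.04% (limma). Over the 19620 genes not higher underground the split was 122 rises and 356 falls, an alternative chosen after the data were seen. The split also moved with single libraries, to 845 rises and 346 falls without SD+Si library 1, and to 11 rises and 27 falls without SD+Si library 2. Without S+Si library 1 there were 92 rises and 51 falls, and without S+Si library 3 there were 13 rises and 38 falls. Of the 388 genes that rose in SD over S, 23 (5.93%) also rose with silicate and 1 (0.258%) fell, beside 1.5% and 1.53% of all tested genes. Of the 467 that fell, 63 (13.5%) also fell and 2 (0.428%) rose. The shares over all tested genes again do not allow for the spread common to both comparisons. These shared genes were 6.55% of the rises and 17.5% of the falls in SD+Si over S+Si. Called or not, 288 of the 388 changed upward with silicate, with a median of 0.13, and 379 of the 467 changed downward, with a median of -0.23. Over all tested genes the median was 0.00, with 11850 upward and 11521 downward.

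SD+Si library 2 stood apart, with the underground markers at 15.8% of their underground level, against 0.895 and 2.25% in the other SD+Si libraries and 0.0309 to 0.363% in S+Si libraries. Without it and D library 3, only 74 genes were called with silicate, 32 that rose (0.137% of those tested) and 42 that fell (0.180%). Of these, 5 rises and 19 falls were shared with SD over S. The medians of the gene sets were then 0.14 and -0.25. The gene-by-gene test of the difference between the steps without and with silicate called 0 genes (limma, smallest adjusted p = 0.0599), with 3552 at an unadjusted p under 0.05, 15.2% of those tested.

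Of the 30 genes called with every library left out in turn, 8 also fell in SD+Si over S+Si and 0 also rose, beside 1.53% and 1.5% of all tested genes. These shares over all genes do not allow for the common spread either. Of those 30, the 20 that fell had a median change of -0.36 with silicate and the 10 that rose had a median of 0.06.

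**Figure D3:**
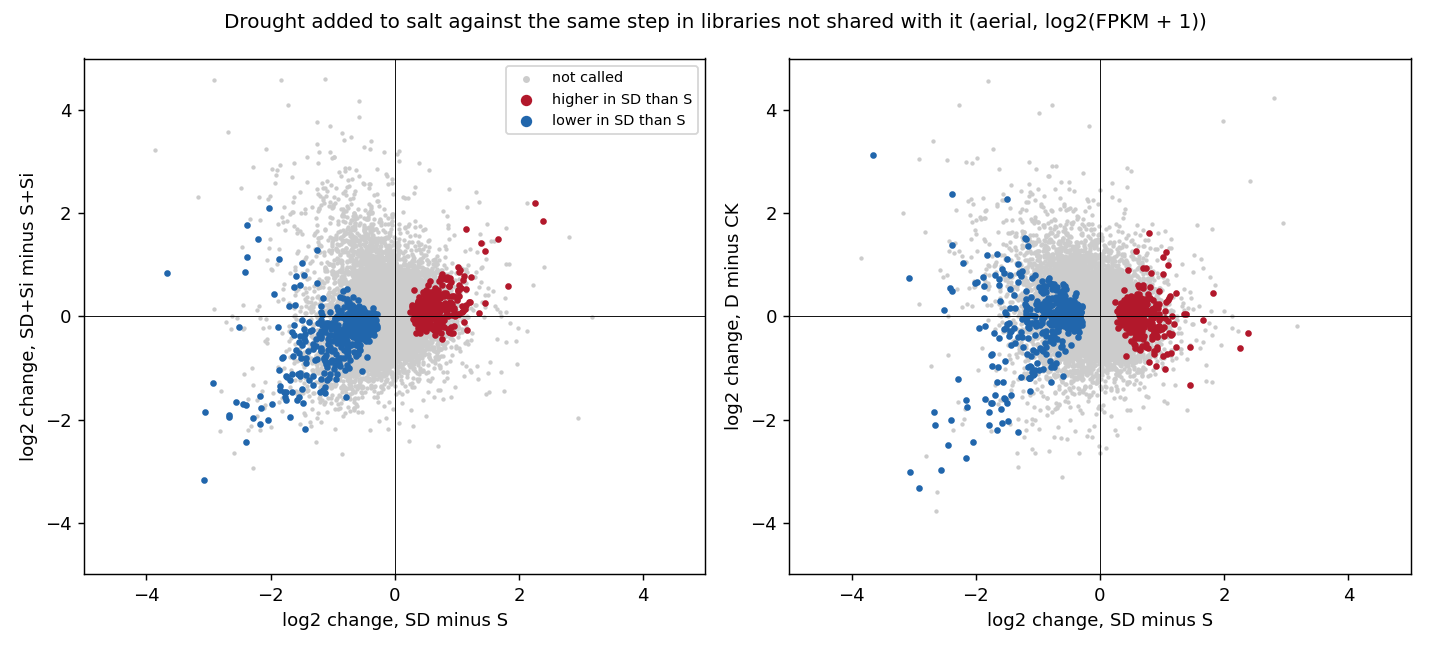
Change in log2(FPKM + 1) of each tested gene in aerial SD minus S (horizontal axis) against SD+Si minus S+Si (left) and D minus CK (right); red and blue points are the 388 genes higher and the 467 lower in SD than in S, and grey points the genes not called. In the left panel 379 of 467 blue points lie below 0, in the right panel 227; 5 grey genes lie outside the left panel's axes.

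The level of the called genes was followed in each aerial library. These genes were chosen for their SD and S levels, so the place of SD beyond the other groups follows in part from the choice. Relative to the mean of the CK+Si libraries, the median of the genes that rose was 0.54, 0.63 and 0.77 log2 units in SD libraries 1 to 3, against 0.12, 0.10 and 0.05 in S libraries 1 to 3. In D libraries it was -0.06 to -0.03, against -0.10 to -0.02 in CK libraries. In SD+Si libraries it was 0.17, 0.19 and 0.27, against 0.03, 0.16 and 0.09 in S+Si libraries. The SD+Si libraries thus lay above the S+Si libraries in every pair. They also lay below every SD library, but the choice of genes raises the SD level, so this does not show a weaker response with silicate.

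The genes that fell mirrored this pattern. Their median was -0.79, -0.77 and -1.01 in SD libraries 1 to 3, against -0.32, -0.06 and -0.06 in S libraries 1 to 3. S library 1 was the lowest of the S libraries. In SD+Si libraries it was -0.33, -0.24 and -0.30, against -0.02, -0.14 and -0.06 in S+Si libraries, again without overlap. In D libraries it was 0.03 to 0.08, against 0.02 to 0.07 in CK libraries. The genes were chosen for their SD and S levels. Levels in the other groups did not choose them, but all aerial groups entered the spread estimate behind the calls.

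**Figure D4:**
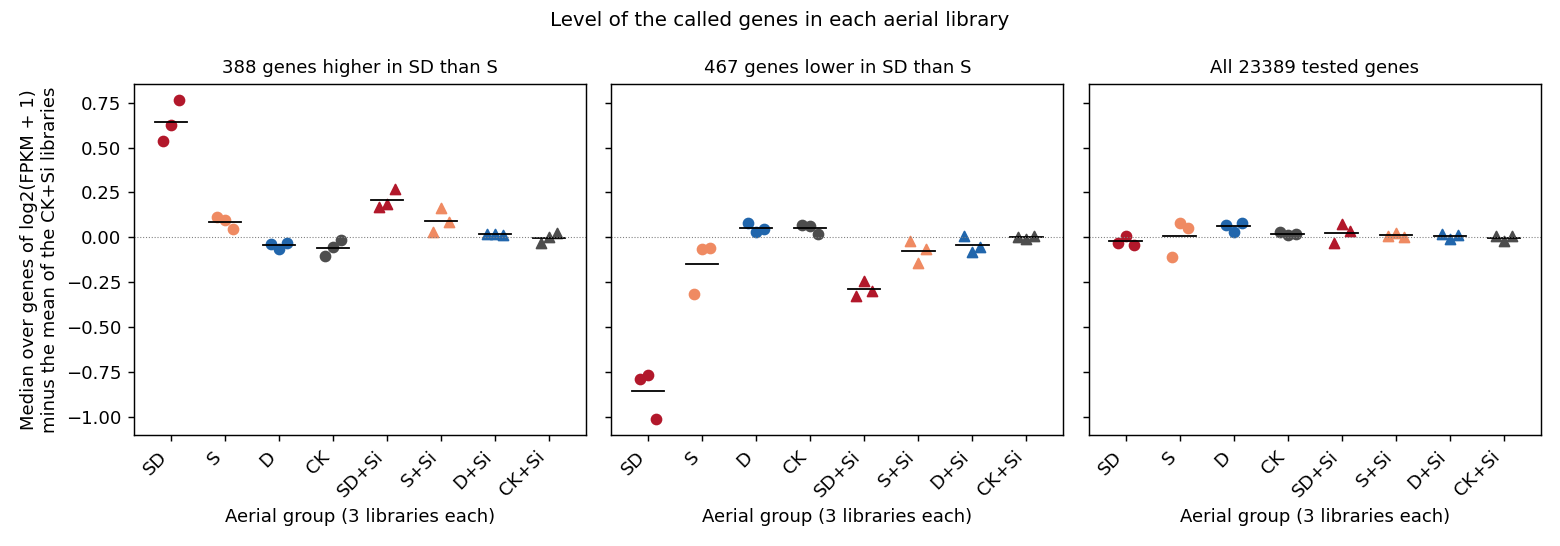
Median over the 388 genes higher in SD than S (left), the 467 lower (middle) and all 23389 tested genes (right) of the level in each aerial library minus the mean of the CK+Si libraries, in log2(FPKM + 1); points are libraries, triangles silicate-fed ones, and bars group means. The SD libraries, which with S chose these genes, lie at 0.54 to 0.77 on the left and -1.01 to -0.77 in the middle. The SD+Si libraries lie between SD and S+Si in both.

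Set beside the control, with which they share libraries, the changes ran as follows. Genes that rose in SD over S had a median change of 0.69 in SD over CK and of 0.12 in S over CK. Genes that fell had a median of -0.91 in SD over CK and of -0.19 in S over CK. Over all tested genes these medians were -0.05 and -0.01.

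Few genes changed underground by this test. Adding drought to salt raised 37 (0.151%) and lowered 40 (0.163%) of 24478 genes tested underground, 77 or 0.315% in all (limma). Of the aerial genes, 374 that rose and 458 that fell were also tested underground, and limma called 0 of either group there. At an unadjusted p under 0.05 there were 19 higher and 12 lower of the 374, and 42 higher and 43 lower of the 458. Their median changes underground were 0.01 and 0.07, beside 0.05 over all genes tested in both parts. A direct test of the difference between the parts called 660 of 26335 genes, 2.51%, with 175 (0.665%) more positive and 485 (1.84%) more negative in the aerial parts. Glyur005689s00046703 had 1.43, 0.836 and 1.85 FPKM in underground SD libraries, against 1.12, 0.985 and 4.08 FPKM in underground S libraries, levels too low to show a fall of the aerial size on this scale.

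The called genes were next sorted by features the comparison had not used. Underground-enriched genes are those at least 3 log2 units higher in underground than in aerial CK+Si libraries. Of 724 such genes tested, 10 fell (1.38%) and 0 rose in SD over S (limma), beside 2.00% and 1.66% of all tested genes. At an unadjusted p under 0.05, 100 were lower and 3 higher, beside 4845 of all 23389 tested genes in either direction. The median change of the class was -0.48, beside -0.04 over all tested genes. Relative to CK+Si the class stood at -0.47, -0.29 and -0.49 in SD libraries, against -0.25, 0.22 and 0.13 in S libraries. All SD libraries were lower. The count of falls was 0 without S library 2 and 0 without SD library 3. In bulk tissue, fewer cells of a type and less RNA per cell cannot be told apart, and the underground markers moved the same way.

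The same class went the other way in the other drought steps. In SD+Si over S+Si, 109 of the 724 rose (15.1%) and 0 fell, with a median of 1.20. Over all tested genes 1.5% rose and 1.53% fell in that step. In D over CK, 30 rose (4.14%) and 3 fell (0.414%), with a median of 0.71. There 1.66% of all tested genes rose and 1.66% fell. The libraries with the highest levels of the underground markers, SD+Si library 2 and D library 3, stood highest, at 1.88 and 1.69 log2 units above CK+Si. The other SD+Si libraries stood at 0.16 and 0.78 and the other D libraries at 0.45 and 0.50. Leaving out all genes at least 1 log2 unit higher underground left 794 called genes in SD over S, 370 that rose and 424 that fell, of 19620 tested, an alternative chosen after the data were seen.

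Aerial-enriched genes, at least 3 log2 units higher in aerial than in underground CK+Si libraries, changed in both directions. Of 808 tested, 25 rose (3.09%) and 26 fell (3.22%) in SD over S, beside 1.66% and 2.00% of all tested genes, with a median of 0.06. These counts too rested on single libraries. There were 82 rises and 46 falls without S library 1, 4 and 15 without S library 2, and 4 and 11 without S library 3. Without SD libraries 1 to 3 there were 14, 12 and 1 rises and 20, 18 and 3 falls. With silicate 7 rose and 37 fell, and in D over CK 19 rose and 35 fell.

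Among genes of many exons, more fell than rose. Of 595 tested genes with 20 or more exons, 37 fell (6.22%) and 1 rose (0.168%) in SD over S, beside 2.00% and 1.66% of all tested genes. The median change of the class was -0.14, beside -0.04 over all tested genes. The median level of the class relative to CK+Si was -0.17, -0.12 and -0.25 in SD libraries, against -0.25, 0.07 and 0.04 in S libraries. S library 1 lay within the SD range, so the groups overlapped. The count of falls was 136 without S library 1, 6 without S library 2, 3 without S library 3, and 22, 21 and 1 without SD libraries 1 to 3. In SD+Si over S+Si, 6 fell and 1 rose with a median of -0.08, and in D over CK 3 fell and 10 rose with a median of 0.05.

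Genes of a single exon had 80 falls (2.51%) and 42 rises (1.32%) of 3187 tested, near the 2.00% and 1.66% of all tested genes, and a median of -0.11. Their falls numbered 185 without S library 1, 30 without S library 2, 35 without S library 3 and 5 without SD library 3. Genes of 2 to 19 exons had 343 falls (1.89%) and 332 rises (1.82%) of 18193, also near the shares over all tested genes. Without S library 1 they had 1005 falls and 543 rises, and without S library 2 they had 91 falls and 169 rises. Genes annotated with several transcripts had 30 falls and 30 rises of 1537, or 1.95% in each direction. Without S library 1 they had 96 falls and 34 rises, without S library 2 they had 6 and 17, and without SD library 3 they had 0 of either. Genes that overlap another gene had 119 falls (2.36%) and 84 rises (1.66%) of 5045, with 303 falls and 151 rises without S library 1, and 28 falls and 40 rises without S library 2. How strand was treated is not given in the sources used here, so the reads of overlapping genes may not be separable. Of 1414 tested rows labelled as new genes, which carry no coordinates, 7 fell (0.495%) and 13 rose (0.919%). Without S library 1 the order was reversed in these rows, with 35 falls and 18 rises.

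**Figure D5:**
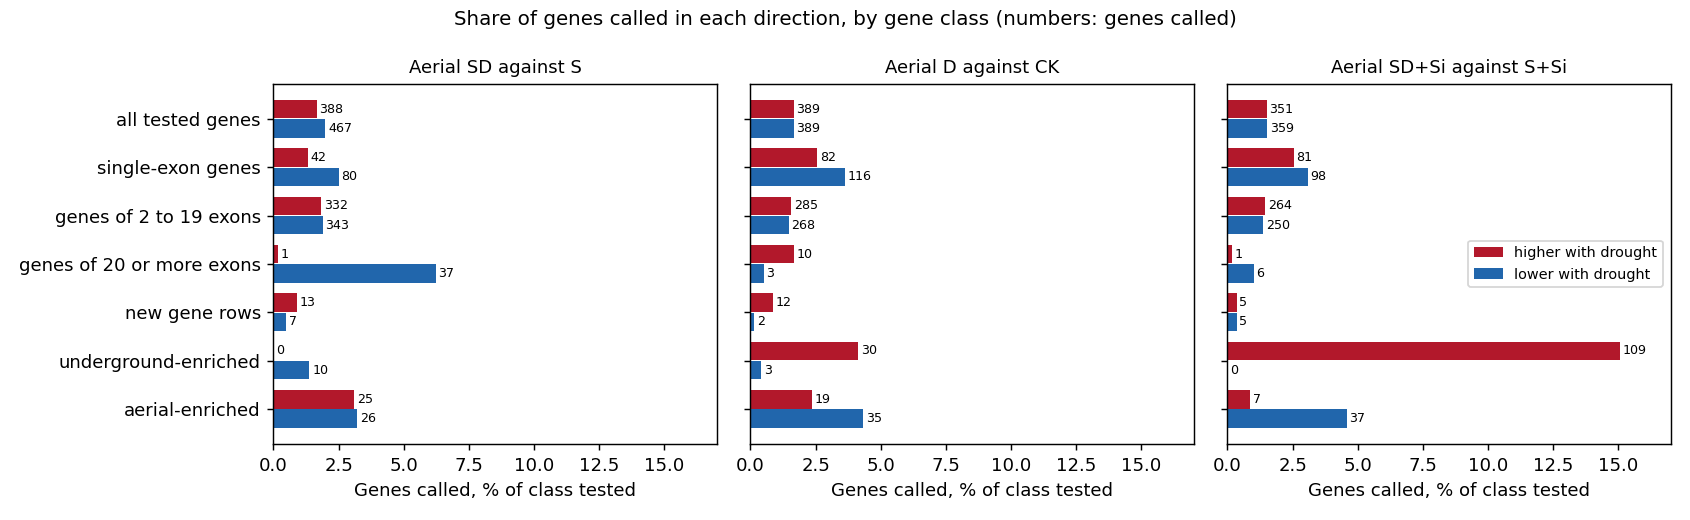
Percent of the tested genes of each class that were higher (red) or lower (blue) with drought, in aerial SD against S, D against CK, and SD+Si against S+Si; the number of genes stands at each bar. Genes of 20 or more exons show 6.22% lower in SD than S, and underground-enriched genes show 15.1% higher in SD+Si than S+Si against 0% higher in SD than S.

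The tested genes were also sorted by level, beside 1.66% rises and 2.00% falls over all of them. Below a mean of 5 FPKM over the aerial libraries 40 rose (0.439%) and 42 fell (0.461%) of 9110. Between 5 and 50 FPKM 243 rose (2.06%) and 359 fell (3.04%) of 11794, and between 50 and 500 FPKM 102 rose (4.31%) and 65 fell (2.75%) of 2367, with a median change of 0.04. At 500 FPKM or more 3 rose (2.54%) and 1 fell (0.847%) of 118, and the median change was 0.22. The difference between these shares was not tested, and each depended on single libraries. Between 5 and 50 FPKM there were 348 rises and 1007 falls without S library 1, but 133 rises and 96 falls without S library 2. Between 50 and 500 FPKM there were 204 rises and 150 falls without S library 1, and 3 rises and 7 falls without SD library 3.

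Most called genes had no called neighbour of the same direction. Of the genes that rose, 357 stood alone, 9 pairs were neighbours, and the other 13 were new-gene rows without coordinates. The pair with the largest median change lies at Scaffold00013:16044-26443 and holds Glyur000013s00003180, with changes of 0.74 and 2.38. A second pair, at Scaffold00170:119769-120554, consists of overlapping genes on opposite strands, with changes of 0.91 and 1.01. Of the genes that fell, 432 stood alone, with 12 pairs, 1 run of 4 and 7 new-gene rows without coordinates. The run of 4 covers Scaffold00100:330918-352515, with changes of -1.74 to -0.31, and 2 of its genes overlap. The falling pair with the largest median change lies at Scaffold00166:58110-64179, where overlapping genes on opposite strands changed by -2.20 and -1.58.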

How the data were processed

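The authors deposited 1 table of FPKM values per gene and library and a gene annotation. TopHat2 and Cufflinks are named per the submitters' processing notes (build, strand treatment, settings and versions: not given in the sources used here). Per the labels' protocols, both nanopore full-length cDNA and Illumina libraries were made; which gave the FPKM is not stated there. Columns were matched to samples by the titles. FPKM are not counts, so log2(FPKM + 1) was tested with limma 3.58.1 (R 4.3.3, trend and robust options) in 1 model of group means over all 24 aerial libraries, over the 24 underground libraries, or over all 48 for differences between parts. Genes needed at least 1 FPKM in at least 3 libraries, and calls an adjusted p under 0.05. The script recovered known rises of 1 and 2 log2 units, in genes above about 5 FPKM, in simulated data with independent noise. Most called genes changed by less than 1 log2 unit, and neither such sizes nor falls were simulated. The simulated data had no shifts common to a library, and the script's behaviour with such shifts was not tested. Named genes are the 2 largest rises and 2 largest falls among called genes whose groups did not overlap and averaged at least 5 FPKM in 1 group; for differences between effects, the 2 largest in each direction.

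Markers had at least 50 FPKM in every CK+Si library of their part and a mean under 1% of that in the other; this rule was chosen after the data were seen, since requiring under 0.5 FPKM left 2 markers a part. Depth could only be estimated roughly from steps between low values, at 17200000 to 36700000 fragments in SD and 18700000 to 24700000 in S libraries; only 48.6 to 69.4% of low values came within 0.1 of a whole fragment (20% would by chance), so fragment counts were not recovered. Alternatives were another pseudocount, other filters, rescaling, fewer groups in the model, other limma options, a replicate block and left-out libraries. Positions are 1-based coordinates of the deposited annotation, of an assembly not named in the labels or files. Lists of stress, transport, photosynthesis and glycyrrhizin genes were not tested, as the files give no names. The comparison, gene classes and lists were chosen with earlier results of these data known.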

Additional observations from a re-analysis of the deposited data

Results flagged for a closer look

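Direct limma tests called a different effect of drought with and without salt for 1021 genes in the aerial parts, 4.37% of those tested. Between the aerial and underground parts, under salt, they called 660 genes, 2.51%. Fitted with their own groups alone, the tests called 96 and 0 genes. With single libraries left out they called 358 to 2130 and 79 to 1705.

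The largest differences between drought with and without salt were as follows. Glyur003336s00045768 was more positive with salt by 3.08 log2 units (adjusted p = 0.0432), and 15 of 20 alternatives lost that call. It had 8.96, 6.90 and 7.28 FPKM in SD libraries, against 0.756, 0.931 and 3.57 FPKM in S libraries, without overlap, but the step itself was not called (adjusted p = 0.0865). Glyur000141s00009812 was more positive with salt by 2.88 (adjusted p = 0.0249), and 6 of 20 alternatives lost the call. Glyur000209s00013480 differed by -6.79 (adjusted p = 0.0113), a call lost only when the 4 groups were fitted alone. Glyur000078s00005378 differed by -6.37 (adjusted p = 0.00609) and kept its call in all 20 alternatives, but it rose by 2.89 in SD+Si over S+Si (adjusted p = 0.0468). Like Glyur000209s00013480, this gene was far more abundant underground than in aerial parts in CK+Si libraries. The underground markers moved the same way, with a median change of -0.78 in SD over S and 1.86 in D over CK. How much of the difference in either gene came with them was not tested.

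Between the parts, Glyur000232s00013783 differed by 3.42 (adjusted p = 0.0410), a call lost in 11 of 20 alternatives. It fell underground, to 2.30, 1.66 and 1.62 FPKM in SD libraries, against 29.7, 31.4 and 20.7 FPKM in S libraries. In the aerial parts it had 4.80, 0.121 and 0.171 FPKM in SD libraries, against 0.0894, 0 and 4.35 FPKM in S libraries, with full overlap. Glyur000028s00003496 differed by 2.14 (adjusted p = 0.0398), and 8 of 20 alternatives lost that call. Its aerial SD and S libraries all lay at or below 1.68 FPKM. Glyur000209s00013480 differed by -4.54 (adjusted p = 0.0273), lost in 7 of 20, and Glyur000141s00009796 by -4.05 (adjusted p = 0.0115), lost in 2 of 20. The last had 0.0442, 0.0823 and 0.114 FPKM in aerial SD libraries, against 12.2, 6.36 and 0.469 FPKM in aerial S libraries, and 24.1, 12.2 and 27.3 FPKM in underground SD libraries, against 1.87, 5.22 and 12.1 FPKM in underground S libraries. Neither step passed the test on its own (adjusted p = 0.0699 in the aerial parts and 0.101 underground), and the underground markers were also lower in aerial SD than in aerial S libraries.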

How the results depend on the processing

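In SD over S, the count of 855 became 551 without a filter on low values and 0 with SD and S fitted alone, and ran from 31 to 2005 with 1 library left out. The 30 genes called with each library left out kept their calls under every alternative except that last fit. Drought alone (778) gave 54 with its groups alone and 317 to 655 with 1 library left out. The difference with and without salt (1021) gave 626 without a filter, 96 with its groups alone and 358 to 2130 in leave-outs. SD+Si over S+Si (710) gave 99 with its groups alone, 74 without the 2 libraries highest in underground markers and 38 to 1191 in leave-outs. The difference with and without silicate (0) gave 118 with a pseudocount of 0.1, 1 without a filter, 33 after rescaling, 4 with its groups alone, 5 without the 2 libraries, and 0 to 446 in leave-outs. Underground, 77 became 1 with the groups alone and 11 to 93 in leave-outs. The difference between parts (660) became 0 with its groups alone and 79 to 1705. Rescaling moved the split of calls by over 10 points for the underground step (36 higher and 63 lower, against 37 and 40) and the parts (293 and 466, against 175 and 485). A block for the replicate number gave 756 calls in SD over S and 42 underground. The numbers do not pair the samples: same-numbered SD and S libraries had correlations of -0.16 to 0.06 in their deviations. The cause of these shifts was not tested. With 3 libraries a group and FPKM without counts, depth per gene is not known, and genes near 1 FPKM are the least certain.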
